A study of Mus musculus with 8 samples.

Results

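The genes described here are the 10 TGF-beta ligand, receptor and binding protein genes Tgfb1, Tgfb2, Tgfb3, Tgfbr1, Tgfbr2, Tgfbr3, Ltbp1, Ltbp3, Ltbp4 and Tgfbi. They were taken by symbol from a deposited table of 34536 gene symbols, and all 10 were among the 13817 with enough counts to be tested. RNA was sequenced from mouse cells obtained by FACS from embryoid bodies, aggregates in which pluripotent stem cells differentiate. By the labels, libraries A, C, E and G hold endocardial cells and libraries B, D, F and H endothelial cells, 4 each, and they name no genotype, treatment, culture day or stem cell line. The series title asks whether heart muscle differentiation in culture depends on signals from endocardium, the inner lining of the heart. The sources used here name neither the sort markers nor separate cultures. The spread behind every p-value is that between these 8 samples, and whether it is technical or between cultures is not stated. Libraries of neighbouring letters deviated together from their group means (r of 0.32 to 0.61 across genes, against -0.41 to 0.05 for the 12 other pairs across groups). Deviations from a group mean cancel out within the group, so higher values for some pairs force lower ones for others. The range of the 12 other pairs is thus partly built in. No label gives a pairing of neighbouring letters, and the main test does not use it.

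TGF-beta ligands are secreted in a latent form, in which the propeptide stays wrapped around the ligand and is bonded to a latent TGF-beta binding protein that ties the complex to the extracellular matrix. Integrins, proteases and thrombospondin release the ligand, which binds the type II receptor Tgfbr2, and this receptor phosphorylates the type I receptor Tgfbr1, which in turn phosphorylates Smad2 and Smad3. Betaglycan, the product of Tgfbr3, presents ligand to this pair and matters most for the product of Tgfb2. In the atrioventricular canal of the embryo this pathway takes part in the change of endocardial cells into the mesenchyme of the heart cushions, from which valves form.

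The labelled cell types were checked against marker genes. All 10 pan-endothelial markers were detected in both groups, and their summed level was 1310 to 1756 CPM (counts scaled to a common library size) in the endocardial group against 380.4 to 841.7 CPM in the endothelial group. Of these markers, 7 were called higher in the endocardial libraries and 0 lower. Kdr and Tek were the most abundant in this sum, and Tek overlapped between the groups (mean 230.0 CPM, endothelial mean 207.9). Further apart than the sum, by endocardial against endothelial mean, were Cdh5 (131.8 against 16.1), Tie1 (162.2 against 26.0), Esam (49.0 against 9.10) and Erg (32.3 against 4.59). Pecam1 was less so (156.7 against 88.6). In library H, Robo4 and Emcn rested on 3 and 4 counts. Markers of mesenchyme and fibroblasts were abundant in both groups, at 4460 to 8641 CPM and 3961 to 26197 CPM in all, with the highest sum in library B. Markers of pluripotent cells summed to 18.2 to 75.4 CPM in the endocardial group against 100.5 to 504.2 CPM in the endothelial group, with the highest sum in library F. The 6 endocardial markers summed to 586.7 to 664.1 CPM in the endocardial group against 168.0 to 232.5 CPM in the endothelial group. Of these, 4 were called higher in the endocardial libraries, and the groups overlapped for Npr3 and Gata4. Total counts ran from 6677667 to 11369363 per library. In bulk RNA, fewer cells of a type and less RNA per cell cannot be told apart, which holds for every level given here.

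The promoters of 3 of the genes are shown as a description, and no level or fold change below rests on their sequence. Tgfb1 and Ltbp4 were the genes whose libraries did not overlap between the groups, and Tgfb2 was the ligand gene with the highest level per kilobase of annotated exon, so this choice was made with the values known. Sequences are from RefSeq, build GRCm38.p6, and are given 5′ to 3′ on the strand of the gene up to the base before its first annotated start. Capitals mark matches on either strand to GGGCGG, the core of the GC box, to TATAAA, the TATA box, and to CAGAC, a short Smad binding sequence. The Tgfb1 stretch is chr7:25686752-25687001 (plus strand), the Tgfb2 stretch chr1:186705990-186706239 (minus strand) and the Ltbp4 stretch chr7:27337693-27337862 (minus strand).
Tgfb1: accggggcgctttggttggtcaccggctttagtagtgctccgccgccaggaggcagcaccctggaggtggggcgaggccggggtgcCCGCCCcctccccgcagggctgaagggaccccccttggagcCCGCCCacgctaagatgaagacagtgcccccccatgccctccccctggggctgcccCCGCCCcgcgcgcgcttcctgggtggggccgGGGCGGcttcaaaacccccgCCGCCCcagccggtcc
Tgfb2: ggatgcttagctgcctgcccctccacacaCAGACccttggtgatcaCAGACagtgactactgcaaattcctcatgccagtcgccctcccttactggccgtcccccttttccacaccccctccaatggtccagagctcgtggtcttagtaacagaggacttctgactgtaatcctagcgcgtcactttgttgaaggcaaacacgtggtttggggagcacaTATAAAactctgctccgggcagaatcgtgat
Ltbp4: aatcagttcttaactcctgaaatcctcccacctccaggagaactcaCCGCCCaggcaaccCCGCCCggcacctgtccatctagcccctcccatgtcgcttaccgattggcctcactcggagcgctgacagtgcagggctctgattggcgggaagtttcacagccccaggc

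The Tgfb1 promoter held 5 GGGCGG matches, 0 TATAAA and 0 CAGAC, with 75.2% G and C. The Tgfb2 promoter held 0 GGGCGG matches, 2 CAGAC and 1 TATAAA, which began 31 bases before the start, with 53.6% G and C. The 170 bases of Ltbp4 held 2 GGGCGG matches and none of the other motifs, and the 250 bases before that RefSeq start held 3. No match overlapped another in these windows. Among 32851 promoters of 250 bases, 32.7% held GGGCGG, 12.4% TATAAA and 42.2% CAGAC, and the median G and C content was 52.4%. A match is a description of the letters and not a measured binding site. RefSeq gives Ltbp4 further starts within the gene, and counts per symbol do not tell transcripts from different starts apart.

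None of the 10 genes was called different between the groups. By edgeR's quasi-likelihood test with Benjamini-Hochberg adjustment over all tested genes, 0 of 10 had an adjusted p below 0.05, where 2.58% of all tested genes did. At an unadjusted p below 0.05 there were 3 (Tgfb1, Ltbp1 and Ltbp4), against 14.6% of all tested genes. Levels did not overlap between the groups for Tgfb1 and Ltbp4, 2 of the 10, against 9.76% of all tested genes. Tgfb1, Tgfb3 and Tgfbr2 had a log2 fold change (endocardial minus endothelial) above 0 and the other 7 one below 0. The median was -0.16, and 0.01 over all tested genes. Without regard to sign, the median log2 fold change was 0.42 for the 10 genes and 0.17 over all tested genes. The 95% interval of the log2 fold change lay wholly between -1 and 1 for 5 of the 10 genes (Tgfb2, Tgfbr1, Tgfbr3, Ltbp1 and Ltbp3), against 75% of all tested genes. A 2-fold difference thus lay outside the interval of those 5 and inside that of the other 5. DESeq2 called 1 of the 10, Ltbp4, against 6.22% of all genes, and limma with voom weights called 1, Tgfbr2, against 7.06%. EdgeR with neighbouring letters as a block, a pairing that no label gives, also called 1, Ltbp4, against 8.71%.

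**Figure D1:**
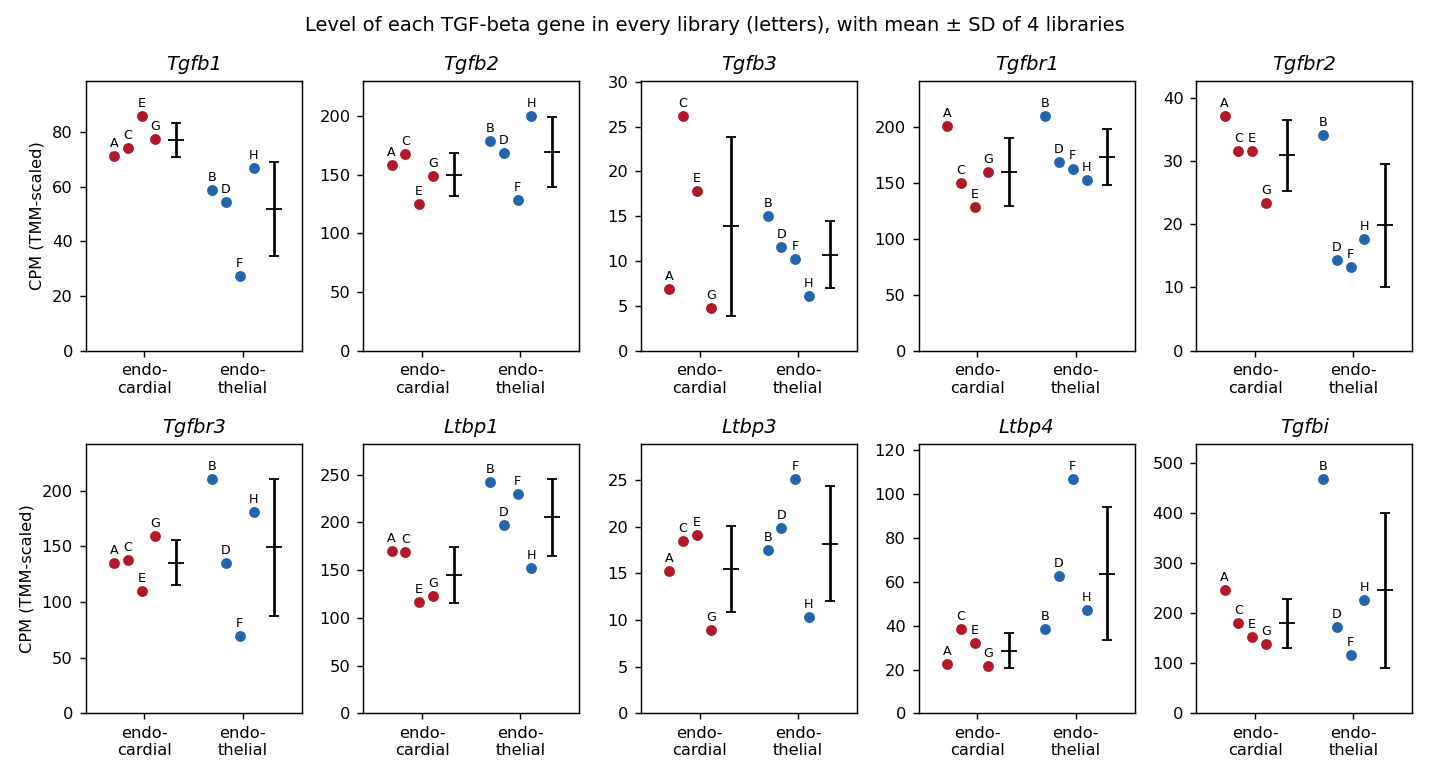
Level of each of the 10 genes in TMM-scaled CPM (vertical axes, each from 0) in the 4 endocardial (red) and 4 endothelial (blue) libraries, named by letter, with the mean and SD of each group in black. The groups lie apart for Tgfb1 and, by a narrow margin, Ltbp4, while library B stands high for Tgfbi at 468.1 CPM and library F high for Ltbp4 at 107.0 CPM.

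Of the ligand genes, Tgfb1, which codes for the ligand most studied in vessels and blood cells (chromosome 7, 25687002 to 25705077, plus strand, protein-coding), had the clearest separation of levels. Its level was 71.1, 74.3, 85.8 and 77.3 CPM in libraries A, C, E and G and 58.8, 54.3, 27.2 and 66.7 CPM in B, D, F and H. Every endocardial library was above every endothelial library, and library F was the lowest. The means were 77.2 ± 6.31 and 51.8 ± 17.1 CPM (SD, n = 4 each), a 1.49-fold difference (log2 fold change 0.58, SE 0.23, 95% interval 0.06 to 1.09), with an edgeR adjusted p of 0.273. Without library F the log2 fold change was 0.35.

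Tgfb2, the ligand gene tied to heart cushion formation (chromosome 1, 186622792 to 186705989, minus strand, protein-coding), was not called different. It was at 158.7, 167.5, 124.9 and 149.0 CPM in A, C, E and G and at 179.0, 168.7, 128.9 and 200.1 CPM in B, D, F and H. Libraries B, D and H lay above all 4 endocardial libraries, D by a narrow margin, and the groups overlapped through F alone. The log2 fold change was -0.17 (SE 0.15, 95% interval -0.50 to 0.16, edgeR adjusted p = 0.674), so a difference as large as 2-fold either way lay outside the interval.

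Tgfb3, the third ligand gene (chromosome 12, 86056745 to 86079041, minus strand), was low and varied more within the groups than between them. It was at 6.84, 26.2, 17.9 and 4.74 CPM in A, C, E and G and at 15.1, 11.5, 10.2 and 6.10 CPM in B, D, F and H. The endocardial libraries held both the highest value (C) and the lowest (G). The log2 fold change was 0.38 with an SE of 0.50, and its 95% interval ran from -0.75 to 1.502. It was -0.15 without library C.

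The relative amounts of the ligand transcripts were set side by side per kilobase of annotated exon within each library. Tgfb1 made up 32.4%, 28.7%, 38.8% and 36.1% of the summed ligand level in A, C, E and G and 24.8%, 24.9%, 17.6% and 26.7% in B, D, F and H. The groups did not overlap in this share. Tgfb2 made up 57.2% ± 6.05 of the ligand level in the endocardial and 68.8% ± 2.98 in the endothelial libraries (SD, n = 4 each), and Tgfb3 8.76% ± 5.69 and 7.71% ± 2.85. The shares of a library add up to the whole and that of Tgfb3 is small, so the lower share of Tgfb2 largely restates the higher share of Tgfb1. These shares were looked at after the levels were known and were not tested. The length used for Tgfb1 matters to its share: with the longest protein-coding transcript in place of all annotated exons, it rose to 51.6% in the endocardial and 38.7% in the endothelial libraries, and the groups still did not overlap.

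Among the receptor genes, Tgfbr1, which codes for the type I receptor kinase (chromosome 4, 47353222 to 47414931, plus strand), had overlapping levels. It was at 201.1, 150.3, 128.5 and 160.2 CPM in A, C, E and G and at 209.7, 168.4, 162.9 and 152.6 CPM in B, D, F and H. Libraries A and B were the highest of their groups. The log2 fold change was -0.12 (SE 0.15), and its 95% interval of -0.46 to 0.23 was among the narrowest of the 10.

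Tgfbr2, which codes for the ligand-binding type II receptor kinase (chromosome 9, 116084293 to 116175360, minus strand), was lower in all but 1 of the endothelial libraries. It was at 37.1, 31.5, 31.5 and 23.3 CPM in A, C, E and G and at 34.1, 14.3, 13.2 and 17.6 CPM in B, D, F and H. Libraries D, F and H lay below all 4 endocardial libraries, and B lay among them. The log2 fold change was 0.63 (SE 0.29, 95% interval -0.02 to 1.28), with an edgeR adjusted p of 0.361. Limma with voom weights gave an adjusted p of 0.0473, and without library B edgeR gave a log2 fold change of 1.05 with an adjusted p of 0.0218, where 3.27% of all tested genes were called.

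Tgfbr3, the betaglycan gene (chromosome 5, 107106570 to 107289629, minus strand), spread more widely in the endothelial group. It was at 135.4, 137.5, 109.6 and 158.9 CPM in A, C, E and G and at 210.6, 134.9, 69.9 and 180.8 CPM in B, D, F and H. The endothelial libraries held both the highest value (B) and the lowest (F). The SD was 20.2 CPM among endocardial and 61.3 CPM among endothelial libraries, a difference in spread that was not tested. Its log2 fold change was -0.14 (SE 0.29, edgeR adjusted p = 0.89), and 0.09 without library B.

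**Figure D2:**
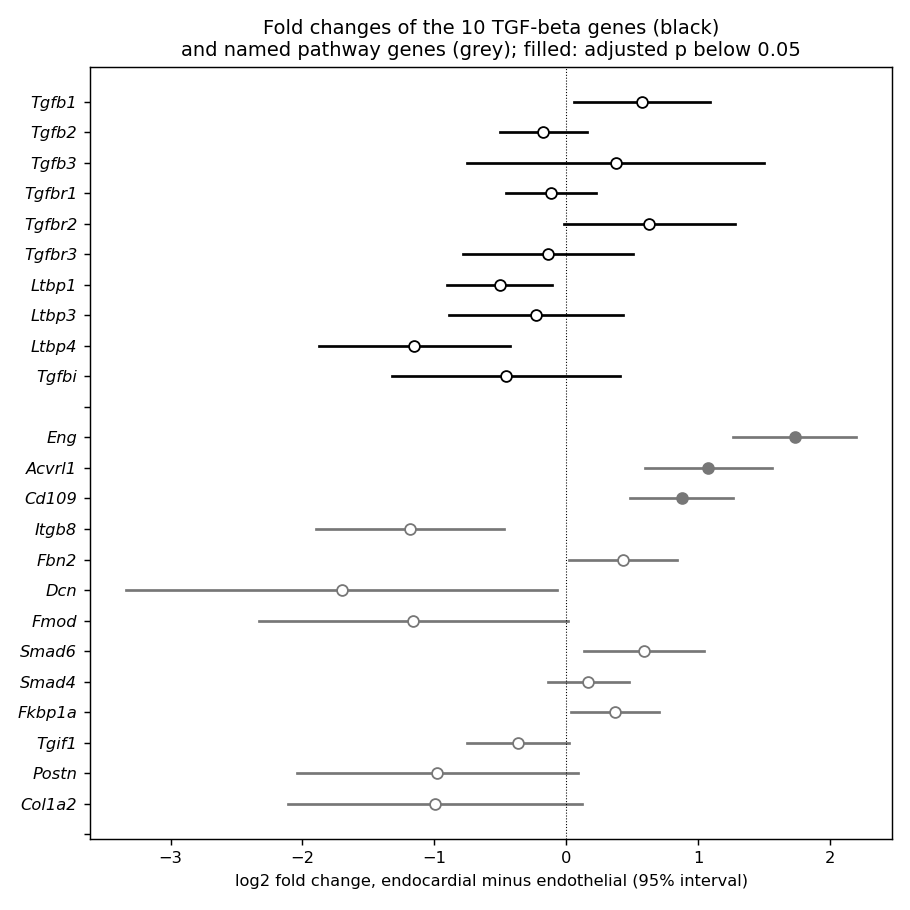
Log2 fold change, endocardial minus endothelial (horizontal axis), with its 95% interval (line) for the 10 TGF-beta genes (black) and the named genes of the wider pathway (grey). Filled circles mark an edgeR adjusted p below 0.05, reached by Eng at 1.73, Acvrl1 at 1.08 and Cd109 at 0.88 and by none of the 10.

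The genes for latent TGF-beta binding proteins all had log2 fold changes below 0, and none was called by edgeR. Ltbp4 (chromosome 7, 27305136 to 27337692, minus strand, protein-coding) had the largest difference of the 10 genes. It was at 22.5, 38.4, 32.0 and 21.7 CPM in A, C, E and G and at 38.4, 62.8, 107.0 and 47.0 CPM in B, D, F and H. The groups did not overlap, but the highest endocardial library (C) and the lowest endothelial library (B) were equal to 3 digits, and F stood highest. The means were 28.7 ± 8.03 and 63.8 ± 30.5 CPM (SD, n = 4 each), which is 0.450 of the endothelial level (log2 fold change -1.15, SE 0.32, 95% interval -1.87 to -0.43, edgeR adjusted p = 0.107).

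The call on Ltbp4 depended on the model. DESeq2 gave an adjusted p of 0.00886, and edgeR with the block of neighbouring letters (A and B, C and D, and so on) one of 0.00822. Limma with voom weights gave 0.0661. Over all fits the adjusted p of Ltbp4 ran from 0.00822 to 0.25. Without library F the log2 fold change was -0.80.

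Ltbp1, which codes for the binding protein first found on latent TGF-beta (chromosome 17, 75005568 to 75392512, plus strand), was at 170.3, 169.5, 116.7 and 123.0 CPM in A, C, E and G and at 242.9, 197.0, 229.5 and 152.7 CPM in B, D, F and H. Libraries B, D and F were above all 4 endocardial libraries, and H lay below A and C. The log2 fold change was -0.51 (SE 0.18, 95% interval -0.91 to -0.10), with an edgeR adjusted p of 0.208. It stayed between -0.63 and -0.41 in the 8 fits that leave out 1 library, none of which called it.

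Ltbp3 (chromosome 19, 5740904 to 5758532, plus strand) was the least abundant of these 3 genes per kilobase of annotated exon, but stood above Ltbp4 in both groups by the median length of the coding transcripts (11.2 against 5.82 and 13.1 against 13.0 CPM per kilobase). It was at 15.2, 18.5, 19.1 and 8.98 CPM in A, C, E and G and at 17.5, 19.9, 25.1 and 10.3 CPM in B, D, F and H. Libraries G and H were the lowest of their groups, and the groups overlapped. Between the groups the log2 fold change was -0.23 (SE 0.30, 95% interval -0.89 to 0.43), and it ran from -0.43 without library H to -0.037 without library G.

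Tgfbi, which codes for a secreted matrix protein named for its induction by TGF-beta (chromosome 13, 56609523 to 56639562, plus strand), varied with a single library. It was at 247.1, 180.7, 151.6 and 138.6 CPM in A, C, E and G and at 468.1, 172.2, 116.8 and 226.7 CPM in B, D, F and H. Library B was the highest and library F the lowest of all 8, and the other 3 endothelial libraries lay across the endocardial range. Its log2 fold change was -0.46 (SE 0.39, edgeR adjusted p = 0.672), and 0.08 without library B.

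Levels of different genes were compared per kilobase of annotated exon. In the endocardial libraries the order was Tgfbi at 47.6 ± 12.8 CPM per kilobase, Tgfb2 at 25.9 ± 3.17, Tgfbr1 at 24.5 ± 4.66, Tgfbr3 at 20.7 ± 3.09, Tgfb1 at 15.3 ± 1.25 and Ltbp1 at 13.5 ± 2.71 (SD, n = 4 each). Ltbp4, Tgfb3, Tgfbr2 and Ltbp3 followed at 4.43, 4.11, 3.77 and 1.71 CPM per kilobase. Neighbours in this order lay apart in all 4 libraries at 3 places only, after Tgfbi, after Ltbp1 and after Tgfbr2. The genes thus fell into an upper set of 6 and a lower set of 4, with the type II receptor gene in the lower set and the type I receptor gene in the upper.

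In the endothelial libraries the order was the same except that Ltbp1 (19.2 ± 3.75 CPM per kilobase) stood before Tgfb1 (10.3 ± 3.40). Ltbp4 followed at 9.87 ± 4.72, overlapping Tgfb1, and was apart from Tgfb3 at 3.17 ± 1.095. Tgfbr2 was at 2.42 ± 1.18 and Ltbp3 at 2.01 ± 0.68, and their libraries overlapped. With the length of the longest protein-coding transcript, Tgfb1 moved up to 35.5 CPM per kilobase and to the second place in the endocardial libraries. In the endothelial libraries it was at 23.8 CPM per kilobase and stayed at the sixth place. Tgfb3 and Tgfbr2 kept the same or nearly the same values, and Tgfbi stayed first in both groups. With the median length of the coding transcripts Tgfbr1 stood first in the endocardial libraries at 68.2 CPM per kilobase, overlapping Tgfbi at 66.1.

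**Figure D3:**
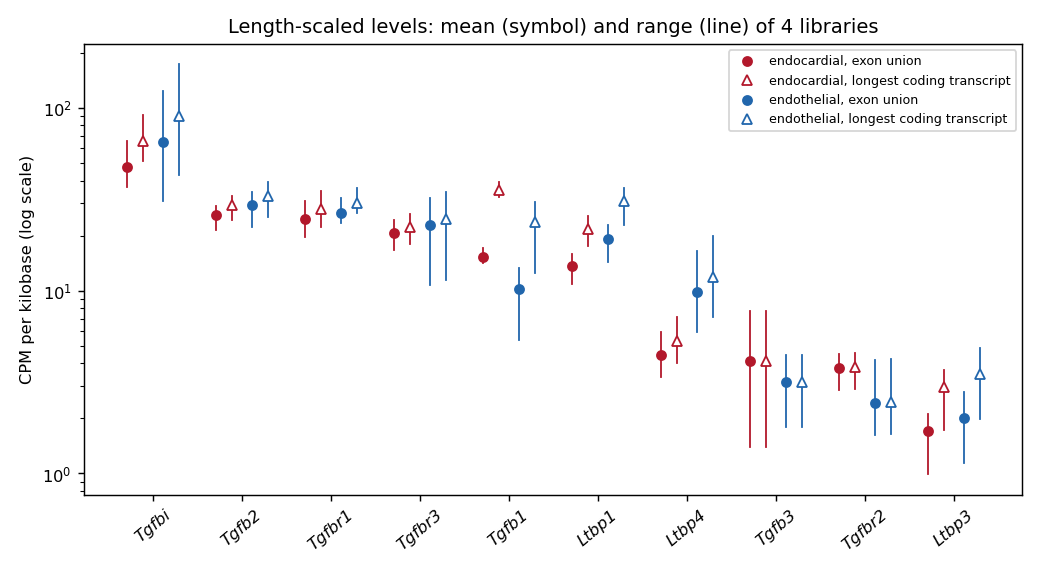
Mean (symbol) and range over 4 libraries (line) of the level per kilobase of each gene, on a log scale, in the endocardial (red) and endothelial (blue) libraries, by the length of all annotated exons (circles) or of the longest protein-coding transcript (triangles). Tgfbi lies highest in both groups, and Tgfb1 moves most between the lengths drawn, from 15.3 to 35.5 CPM per kilobase in the endocardial libraries.

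Other genes of the pathway were taken from a list ordered by role. Of 53 listed symbols, 52 were in the table and 50 were tested, and 3 were called higher in the endocardial libraries and 0 lower, where 1.42% of all tested genes were called higher and 1.16% lower. DESeq2 and limma with voom weights each called 4 of the 50, where they called 6.22% and 7.06% of all tested genes. The median log2 fold change of the 50 was 0.12, and 0.01 over all tested genes. All 3 called genes were in the role of co-receptors and the endothelial type I receptor, which holds 5 genes. The list and its roles were chosen with earlier results of these data known, so these counts are a description.

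Eng, the endoglin gene, a co-receptor of endothelial cells, was at 43.4, 61.3, 72.7 and 56.3 CPM in A, C, E and G and at 12.2, 16.2, 21.9 and 20.1 CPM in B, D, F and H. The groups lay apart, and the endocardial mean was 3.32-fold the endothelial one (log2 fold change 1.73, SE 0.21, edgeR adjusted p = 0.00226), a call kept in all 8 fits that leave out 1 library. Acvrl1, which codes for the type I receptor that pairs with endoglin in endothelium, was at 61.8, 65.6, 52.3 and 81.8 CPM in A, C, E and G and at 34.7, 37.7, 18.7 and 33.1 CPM in B, D, F and H. It was 2.11-fold higher (edgeR adjusted p = 0.0318) and kept its call in 2 of those 8 fits, with an adjusted p of up to 0.0989. Cd109, which codes for a membrane-anchored co-receptor that lowers TGF-beta signalling, was 1.83-fold higher at 24.4 ± 5.41 against 13.2 ± 1.45 CPM (SD, n = 4 each, edgeR adjusted p = 0.0318). It also kept its call in 2 of the 8 fits, with an adjusted p of up to 0.113. The 3 genes were higher in the same group as the pan-endothelial markers, of which 7 of 10 were called higher with a median log2 fold change of 2.29. Within the groups Eng did not follow the pan-endothelial sum. Eng was highest in E (72.7 CPM) and F (21.9 CPM), the libraries with the lowest sums of their groups (1310 and 380.4 CPM). Acvrl1 was lowest of its groups in the same libraries (52.3 and 18.7 CPM). The order of the sum came from its most abundant members, Kdr and Tek, and single markers differed. Emcn and Robo4 were, like Eng, highest of their groups in E and F, while Cdh5 and Tie1 were highest in A and B. The part of endothelial cells in these levels was not tested. Bambi and Tgfbrap1, the other genes of this role, were not called.

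Of 15 tested genes of the latent complex, its release and its activation, 0 were called by edgeR (2 at an unadjusted p below 0.05), and 11 had a log2 fold change above 0 and 4 below. Itgb8, which codes for the beta subunit of an integrin that activates latent TGF-beta, was at 6.197, 5.86, 4.30 and 3.37 CPM in A, C, E and G and at 12.1, 15.04, 12.1 and 5.62 CPM in B, D, F and H. The groups overlapped through library H alone, and the log2 fold change was -1.18 (SE 0.32, edgeR adjusted p = 0.092). DESeq2 (0.016), limma with voom weights (0.0474), edgeR without library H (0.0262) and edgeR with neighbouring letters as a block (0.00822) gave adjusted p-values below the threshold. Fbn2, a fibrillin gene of the microfibrils to which the latent complex binds, had a log2 fold change of 0.43 (SE 0.18, edgeR adjusted p = 0.307).

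Among 4 tested matrix and secreted binders, edgeR called 0 (1 at an unadjusted p below 0.05). Dcn, the gene of the proteoglycan decorin, was at 81.8 CPM in library B and at 4.37 to 19.2 CPM in the other 7 (log2 fold change -1.70, SE 0.72, edgeR adjusted p = 0.317, and adjusted p = 0.00803 with the block of neighbouring letters). The log2 fold change of Dcn was -0.49 without library B (edgeR adjusted p = 0.69). Fmod, the fibromodulin gene, was at 32.6 CPM in B and 5.01 to 15.7 CPM in the others, with a log2 fold change of -1.16 and of -0.41 without B. Library B was also the one with the highest mesenchyme and fibroblast sum, a list that holds Dcn.

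For the genes that carry or curb the signal inside the cell, all log2 fold changes lay between -0.37 and 0.59. Of 6 Smad and anchor genes, 0 were called by edgeR (1 at an unadjusted p below 0.05), and Smad6, which codes for an inhibitory Smad, had the smallest p with 56.3 ± 7.66 against 37.5 ± 10.6 CPM (SD, n = 4 each, log2 fold change 0.59, edgeR adjusted p = 0.195). Smad4, the gene of the shared partner Smad, was at 104.7 ± 15.7 and 93.2 ± 12.9 CPM (log2 fold change 0.17). Of 9 repressor and ubiquitin ligase genes 0 were called (1 at an unadjusted p below 0.05), with log2 fold changes from -0.37 (Tgif1, a repressor of Smad targets) to 0.48. Fkbp1a, whose product binds the type I receptor, had one of 0.37 (edgeR adjusted p = 0.275).

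Genes commonly used as readouts of TGF-beta were not called by edgeR either, 0 of 11 (and 0 at an unadjusted p below 0.05), with 5 above and 6 below 0 and a median of -0.05. Postn, which codes for the matrix protein periostin, was at 956 ± 265 and 1880 ± 1249 CPM (SD, n = 4 each, log2 fold change -0.98, edgeR adjusted p = 0.402). Col1a2, a collagen gene, had a log2 fold change of -0.996 (SE 0.50, edgeR adjusted p = 0.415). Without library B these values were -0.47 for Postn and -0.30 for Col1a2. Both genes were highest in library B, at 3498 and 5439 CPM. Postn and Col1a2 are also in the list of mesenchyme and fibroblast markers.

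Across the 8 libraries, 3 of the TGF-beta genes ran beside marker sums of another kind. These pairs were picked after the values were seen and are given as descriptions. Tgfb1 was lowest in library F, which also had the lowest pan-endothelial sum (380.4 CPM), and its 4 highest libraries were the 4 with the highest sums (1310 CPM or more). Within the endothelial group the order of Tgfb1 was F, D, B and H, and so was that of the pan-endothelial sum. That order of the sum came from its most abundant members, Kdr and Tek, and other markers did not follow it: Pecam1, Robo4 and Emcn were highest in F, and Tie1 and Erg were lowest in H. Within the endocardial group the orders differed, since library E had the highest Tgfb1 level and the lowest sum.

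Ltbp4 was highest in library F, where the pluripotent markers summed to 504.2 CPM, and it was lowest in G and A, where they summed to 18.2 and 20.01 CPM. Library C departed from this order, with 38.4 CPM of Ltbp4 and a sum of 24.1 CPM. Some epithelial and neural markers were also highest in F: Cdh1 at 223.3 CPM, Epcam at 71.6 CPM and Fezf2 at 20.1 CPM. The epithelial sum, with Krt8 and Krt18 as its most abundant members by mean, was highest in H (1231 CPM). None of the 8 pluripotent markers was at 0 in all libraries. Of these markers, 2 were called lower in the endocardial libraries, where 1.16% of all tested genes were. Tgfbi was highest in B, A and H, the 3 libraries with the highest mesenchyme and fibroblast sums (26197, 8641 and 9933 CPM). It was lowest in F, where that sum was lowest (3961 CPM). Between these the orders differed: D had a higher sum than C (7511 against 7101 CPM) and G than E (5969 against 4460 CPM), but less Tgfbi. By mean, Col1a1, Col1a2, Col3a1 and Postn were the most abundant of this list. Twist1 and Prrx1 of the same list were highest in E (15.6 and 15.2 CPM), and Twist1 was lowest in A (7.75 CPM). The part of these cells in the levels of Tgfb1, Ltbp4 and Tgfbi was not tested.

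**Figure D4:**
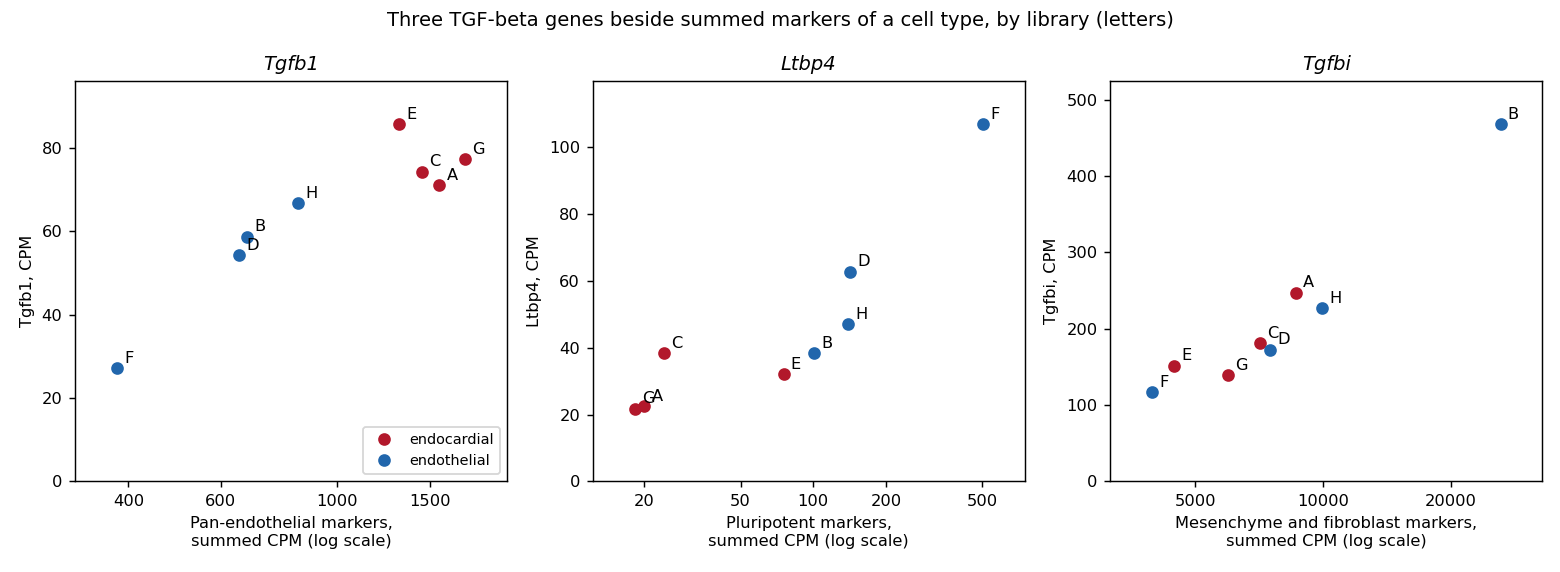
Level of Tgfb1, Ltbp4 and Tgfbi in CPM (vertical axes, from 0) against the summed CPM of pan-endothelial, pluripotent, and mesenchyme and fibroblast markers (horizontal log axes) in each library (letters; endocardial red, endothelial blue). Library F lies at 27.2 CPM of Tgfb1 and 107.0 CPM of Ltbp4, and library B at 468.1 CPM of Tgfbi with a mesenchyme sum of 26197 CPM.

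The genes most like Ltbp4, the gene with the smallest p of the 10, were sought by Pearson correlation of log2 CPM over the 8 libraries among 11307 genes with a mean of at least 5 CPM. They were Wwc1 (r = 0.996), which codes for a scaffold protein of the Hippo pathway, Acot1 (r = 0.993), an acyl-CoA thioesterase gene, and Spock2 (r = 0.988), which codes for a matrix proteoglycan. Wwc1 was at 8.13, 15.2, 13.3 and 8.98 CPM in A, C, E and G and at 17.6, 28.5, 52.9 and 21.3 CPM in B, D, F and H. Like Ltbp4, all 3 were highest in library F and did not overlap between the groups, and none was called by edgeR (adjusted p = 0.0791, 0.243 and 0.0679). The points share the same 8 libraries and their mixture of cells, and the correlations are descriptions. Between the 10 genes themselves, Tgfb1 and Ltbp4 were the most opposed (r = -0.86 over 8 libraries) and Tgfb2 and Tgfbr3 the most alike (r = 0.80).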

How the data were processed

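Estimated counts per gene symbol were deposited as whole numbers for 8 RNA sequencing libraries, prepared with an RNeasy kit and Illumina's stranded mRNA kit, per the labels' protocols. Salmon, which assigns shared reads by a model, DESeq2 and build mm10 are named per the submitters' processing notes, and the sources used here give no version, transcript set or filter. Rounding the deposited estimated counts again changed nothing. EdgeR 4.0.16 (R 4.3.3) kept genes by filterByExpr with a minimum count of 10 and a minimum total of 15. After TMM scaling it ran the robust quasi-likelihood F-test on 4 endocardial against 4 endothelial libraries without covariates. Benjamini-Hochberg adjustment ran over 13817 genes, with calls at an adjusted p below 0.05. The common biological coefficient of variation was 0.239. SE is the absolute log2 fold change over the square root of F, and 95% intervals use the fit's t distribution. CPM values were divided by the TMM-scaled library total. Of all symbols, 32697 were found in GENCODE M21 (GRCm38, the assembly of mm10), which gave positions (1-based, whole gene) and exon lengths. The scripts were tested on simulated data.

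The gene members and lists were chosen with earlier results of these data known. The text names all 10 members, for each role of the pathway list every called gene (up to 4, by smallest p) and at least the 2 with the smallest p, and the 3 genes most like the member with the smallest p. Marker lists were pan-endothelial, endocardial, mesenchyme and fibroblast, smooth muscle and mural, macrophage, megakaryocyte and platelet, erythroid, cardiomyocyte, epicardial, pluripotent, epithelial, neural and endoderm. Alternatives were DESeq2 1.42.0, limma 3.58.1 with voom quality weights, other scalings, filters and lengths, no robust estimation, a block of neighbouring letters and leaving out each library.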

Additional observations from a re-analysis of the deposited data

Results flagged for a closer look

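Dcn, a binder of TGF-beta in the matrix, was at 81.8 CPM in endothelial library B and at 12.4 to 14.3 CPM in the other 3 endothelial libraries, a gap that took up 0.973 of the group's range, above the critical value of Dixon's test for 4 samples. It was the only such value among 52 groups of 4 libraries examined for the named genes, where chance flags about 1 in 20 groups. None of the 10 TGF-beta genes had such a library.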

How the results depend on the processing

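Of 170 refits of the 10 genes' log2 fold changes, 163 kept the direction and the side of the threshold, 4 passed it (Ltbp4 and Tgfbr2, given above) and 3 changed sign, all 3 without a single library and none of them a called value. Leaving out 1 library, the log2 fold change ran from -0.15 to 0.67 for Tgfb3 (lowest without C), from -0.39 to 0.087 for Tgfbr3 and from -0.70 to 0.075 for Tgfbi (both highest without B), and the cause was not tested. It ran from -0.30 to -0.087 for Tgfb2 and from -0.26 to -0.0046 for Tgfbr1, with no change of sign. The number of the 10 genes called was 0 to 1 in those fits, and 1 each by DESeq2, by limma with voom weights and with neighbouring letters as a block. Of the other pathway genes, 3 were called, 6 with that block and 1 to 3 without a library (1 without A, C, D or G). Over all tested genes 356 were called, with 860 by DESeq2, 975 by limma, 1204 with the block and 135 (without E) to 457 (without B) when a library was left out. Leaving out A gave 189, C 157, D 138 and G 153. The block rests on the data and not on the labels. Deviations from the group means correlated across genes at 0.32 to 0.61 between libraries of neighbouring letters. They correlated at -0.41 to 0.05 between the 12 other pairs across groups, a range partly built in because deviations cancel out within a group. DESeq2's size factors, upper-quartile scaling, both other filters, leaving out the most abundant genes and estimation without robustness kept these counts within 1.5 times. Of 20 length-scaled levels, 8 moved by more than 1 SD with the longest coding transcript and 15 with the median coding transcript.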

Other observations

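Some genes listed under the latent complex, its release and its activation stood high in libraries A and B, as did macrophage and platelet markers. Itgb3, the beta subunit of the platelet and endothelial vitronectin receptor, was at 340.1 and 261.9 CPM in A and B and at 35.5 to 91.9 CPM in the other 6 libraries. Nrros, which holds latent TGF-beta on myeloid cells, was at 34.9 CPM in A, 15.6 in B and 2.87 to 11.3 in the others. The macrophage markers summed to 222.7 CPM in A and 75.6 CPM in B against 15.04 to 45.0 CPM in the others, and the megakaryocyte and platelet markers to 343.5 and 220.6 CPM against 27.0 to 114.3 CPM. Ltbp2 was also highest in A and B, at 17.7 and 18.8 CPM, against 2.63 to 5.11 CPM elsewhere. These genes were picked after their values were seen. They had edgeR adjusted p-values between the groups of 0.841 (Itgb3), 0.549 (Nrros) and 0.996 (Ltbp2). The part of blood cells in these levels was not tested.

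The other marker lists had 0 calls for smooth muscle and mural, macrophage, megakaryocyte and platelet, erythroid, cardiomyocyte and epicardial genes. Of 6 endocardial markers 4, and of 4 tested endoderm markers 1, were called higher in the endocardial libraries, against 1.42% of all tested genes. Of 6 epithelial markers 2, and of 5 tested neural markers 3, were called lower in the endocardial libraries, against 1.16%. Among the endoderm markers only Sox17 did not overlap between the groups, with means of 9.81 CPM (endocardial) and 2.74 CPM (endothelial). Foxa2 had the lower endocardial mean (2.25 against 7.59 CPM). The groups overlapped for Foxa2, Afp, Ttr, Apoa1 and Apob, so the count does not describe the list as a whole.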
